A study of Mus musculus with 2 samples.

Results

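The 10 genes described here are the microRNA (miRNA) genes at the start of the imprinted Dlk1-Dio3 region of mouse chromosome 12, between the end of Meg3 and the first coding bases of Rtl1. They are Mir673, Mir493, Mir337, Mir540 and Mir665 on the Meg3 side, and Mir431, Mir433, Mir127, Mir434 and Mir136, which lie antisense to Rtl1. They were chosen by name and position, not by their level, although earlier results of these data were known. They are 10 of the 2202 miRNA genes in the deposited tables. All 10 were found in both tables.

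The samples were adrenal glands of B6CASTF1/J mice, first-generation hybrids whose parents were C57BL/6J and CAST/EiJ mice. Both animals were males aged 4 days, numbered 3 and 4 in the labels. They gave 1 small RNA library each, called replicate 1 and replicate 2, and no other genotype, treatment or time was present. The counts were not split by parental allele. The labels give both animals the same donor entry, so their separate numbers are the only sign that they were different mice.

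The Dlk1-Dio3 region is imprinted, which means that each of its genes is read from the chromosome of a single parent. The protein-coding genes, Rtl1 among them, are expressed from the paternal chromosome. Meg3, the transcripts beyond it and the miRNAs are expressed from the maternal chromosome and run in the other direction to Rtl1. Rtl1 derives from a retrotransposon and is needed for the placenta and for muscle. Because its maternal antisense transcript carries miRNA hairpins, the mature miRNAs pair without mismatch to Rtl1 mRNA and direct its cleavage. The adrenal gland has a steroid-producing cortex around a catecholamine-producing medulla, and Dlk1 of the same region is known in rats from undifferentiated cells at its capsule.

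The mature sequences of the 5 genes antisense to Rtl1 are printed below because their match to Rtl1 sets them apart from the Meg3-side genes. They are RNA from RefSeq on GRCm38.p6, written 5′ to 3′ from the plus strand, with the seed (bases 2 to 8, which pair first with a target) in capitals.
mmu-miR-431-5p: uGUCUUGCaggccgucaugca
mmu-miR-431-3p: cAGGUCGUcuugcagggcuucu
mmu-miR-433-5p: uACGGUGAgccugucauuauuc
mmu-miR-433-3p: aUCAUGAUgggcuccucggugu
mmu-miR-127-5p: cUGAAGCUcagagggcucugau
mmu-miR-127-3p: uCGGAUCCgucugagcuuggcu
mmu-miR-434-5p: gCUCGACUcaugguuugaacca
mmu-miR-434-3p: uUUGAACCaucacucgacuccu
mmu-miR-136-5p: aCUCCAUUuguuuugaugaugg
mmu-miR-136-3p: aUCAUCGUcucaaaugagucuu

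All 10 of these mature forms had a site of full complementarity in the annotated Rtl1 transcript, and no other transcript of the GENCODE M21 annotation held such a site except Mir3071, opposite to Mir136. None of the 10 mature forms of the Meg3-side genes had one in Rtl1. Both forms of miR-337 had a full complement in Mir3544, on the strand opposite to Mir337, and the other 8 had none in any annotated transcript. The Rtl1 coding sequence runs on the minus strand at chr12:109590172-109595403 (mm10), and all 5 antisense hairpins lie inside it, in a coding exon. The sites of the best-counted and the least-counted of these genes in Rtl1 read as follows as DNA of the Rtl1 strand, with the bases that face the seed in capitals.
Rtl1 site of mmu-miR-127-3p, chr12:109592888-109592909: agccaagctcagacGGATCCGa
Rtl1 site of mmu-miR-136-5p, chr12:109595331-109595352: ccatcatcaaaacaAATGGAGt

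Despite their common position, the 10 genes were not a family by sequence. Their 20 mature forms had 20 distinct seeds. Outside the group 2 mouse genes had a seed in common with a member, Mir6985 with miR-673-5p and Mir6915 with miR-540-3p. These had 2 and 3 counts (Mir6985) and 4 and 0 counts (Mir6915) in replicates 1 and 2. No stretch of 18 bases was common to a member's hairpin and another mouse hairpin in the RefSeq table. Matches outside annotated transcripts were not analysed here.

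The hairpins were 62 to 124 bases long, with a GC content of 40.3 to 61.5% and a predicted folding energy of -49.4 to -28.2 kcal/mol. Mir136 was the shortest and the poorest in GC of the 10, and its total folding energy was the weakest, with no adjustment for length. The hairpin of Mir434 held the longest repeat, a run of 13 bases present 2 times, which is shown in capitals because its copies overlap the 5p and the 3p mature form.
Mir434 hairpin, chr12:109594506-109594599, plus strand: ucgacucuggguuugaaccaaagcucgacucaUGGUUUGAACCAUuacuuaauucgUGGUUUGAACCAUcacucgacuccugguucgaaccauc

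The Meg3-side genes lie between annotated genes on the plus strand of chromosome 12. They are Mir673 (ENSMUSG00000076316.1) at chr12:109571990-109572080, Mir493 (ENSMUSG00000077025.2) at chr12:109580233-109580315, Mir337 (ENSMUSG00000065526.4) at chr12:109585789-109585885, Mir540 (ENSMUSG00000072900.2) at chr12:109586080-109586146 and Mir665 (ENSMUSG00000076313.1) at chr12:109586314-109586407. Only 194 bases separate Mir337 from Mir540 and 167 bases separate Mir540 from Mir665. Of these 5 genes, Mir337 alone overlaps an annotated gene, the miRNA gene Mir3544. The Rtl1-antisense genes follow on the same strand. They are Mir431 (ENSMUSG00000070080.1) at chr12:109590447-109590537, Mir433 (ENSMUSG00000070072.1) at chr12:109591715-109591838, Mir127 (ENSMUSG00000070076.2) at chr12:109592846-109592915, then Mir434 (ENSMUSG00000070133.1) at the position given above, and Mir136 (ENSMUSG00000104858.1) at chr12:109595327-109595388. Mir136 also overlaps Mir3071 on the minus strand.

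**Figure D1:**
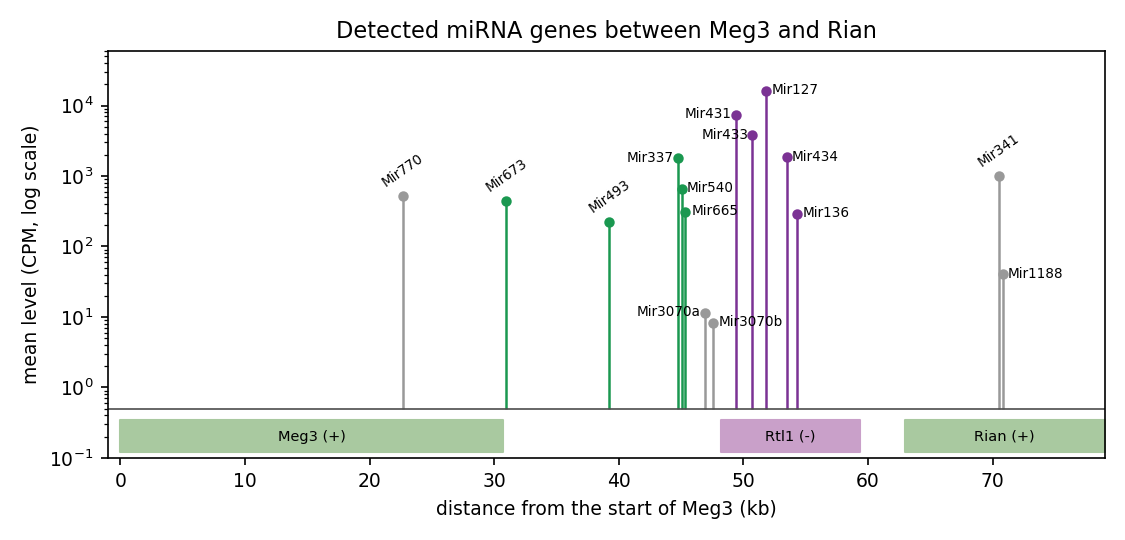
Mean level in CPM (counts per 1000000 miRNA counts, log scale) of the detected miRNA genes on the plus strand against their distance from the start of Meg3 in kb. Green marks the Meg3-side genes, purple the Rtl1-antisense genes and grey other miRNA genes, and bars below show Meg3, Rtl1 and the first part of Rian with their strands. The 4 highest points, Mir127, Mir431, Mir433 and Mir434, all lie above Rtl1.

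Replicate 1 had 11770895 reads and 3961630 counts on the sense strand of miRNA genes, and replicate 2 had 6557080 reads and 1686822 such counts. CPM here means counts per 1000000 sense-strand miRNA counts of a library. All 10 members were detected, which means at least 10 counts in both libraries, whereas 15.4% of all miRNA genes in the tables were. No marker of the adrenal gland itself was listed. The endocrine miRNAs Mir375, Mir7-1, Mir7-2 and Mir7b, all 4 detected, summed to 36299 and 46670 CPM in replicates 1 and 2. Mir375 alone gave 31129 and 42377 CPM of this sum, and Mir7-1 was at 462 and 472 CPM. Mir7-2, at 138 and 67.0 CPM, and Mir7b, at 4570 and 3754 CPM, were lower in replicate 2. Markers of other tissues differed between the libraries. Liver (Mir122) was at 1299 and 20602 CPM, erythroid cells (3 of 3 markers detected) at 7248 and 595 CPM, and striated muscle (3 of 9 detected, Mir133a-2 at 0) at 1143 and 2697 CPM. Mir451a alone gave 6842 and 491 CPM of the erythroid sum, while Mir486 was at 12.4 and 19.6 CPM. Mir206 alone gave 1130 and 2646 CPM of the muscle sum, and the Mir1a and Mir133 genes were all under 2 CPM. Reads at more than 1 locus were given to no gene. Low counts at genes with copies, such as those of Mir1a and Mir133a, therefore do not show that the miRNA was absent. Neuronal markers (3 of 6 matched genes detected) were at 1081 and 801 CPM, and the Mir124 genes of that list were not matched by name. Mir137 alone gave 977 and 678 CPM of the neuronal sum, and the Mir9 genes, which also have copies, were at 2.37 CPM or less. Mir126a of endothelium was at 65222 and 83391 CPM. The part of these markers in the differences between libraries given below was not tested beyond the effect of some of them on the library total. In tissue samples such as these, fewer cells of a type and less RNA per cell cannot be told apart.

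The members together held 3.29% ± 0.105 of miRNA counts (SD, n = 2), and the genes antisense to Rtl1 made up most of this. In replicate 1 the 10 genes had 133292 counts, or 3.36% (exact 95% interval 3.35 to 3.38%). In replicate 2 they had 54255 counts, or 3.22% (3.19 to 3.24%). The 5 Rtl1-antisense genes gave 89.1% of these counts in replicate 1 (89.0 to 89.3%) and 90.2% in replicate 2 (89.9 to 90.4%). Their sum was 8.19 times that of the 5 Meg3-side genes in replicate 1 and 9.17 times in replicate 2. Intervals cover counting error only, since sequencing reads are not independent molecules. Reads at more than 1 locus are not in the library totals, so the shares of miRNA counts are shares of reads given to a single gene.

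Mir127 was the highest member. It is the best studied miRNA of the locus, and its loss in mice raises Rtl1 and disturbs the placenta. It had 67707 counts, or 17091 CPM, in replicate 1, and 26082 counts, or 15462 CPM, in replicate 2. By mean level it was 19th among all miRNA genes, and by itself it gave 50.8% of the members' counts in replicate 1 and 48.1% in replicate 2. The rank leaves out reads at more than 1 locus, so miRNA genes with identical copies can stand too low in it. Its mean was 16276 ± 1152 CPM (SD, n = 2).

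The next 3 genes by level also lie antisense to Rtl1. Mir431, which in mice acts in muscle stem cells and in regrowing axons, had 28303 counts (7144 CPM) in replicate 1 and 12646 counts (7497 CPM) in replicate 2. Mir433 had 14261 counts (3600 CPM) and 6633 counts (3932 CPM) in the same order. Mir434 had 7424 counts (1874 CPM) in replicate 1 and 3039 counts (1802 CPM) in replicate 2. The ranges of these 3 genes did not overlap. The count ratio of Mir431 to Mir433 was 1.98 in replicate 1 and 1.91 in replicate 2, with exact 95% intervals of 1.95 to 2.03 and 1.85 to 1.96. That of Mir433 to Mir434 was 1.92 in replicate 1 (1.87 to 1.98) and 2.18 in replicate 2 (2.09 to 2.28).

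Mir136 stood well below the others of the Rtl1-antisense group. It had 1097 counts (277 CPM) in replicate 1 and 520 counts (308 CPM) in replicate 2. Mir127 had 61.7 times as many counts as Mir136 in replicate 1 and 50.2 times as many in replicate 2, although their hairpins lie within 3 kb of each other. Mir136 made up 0.923% of the counts of its group in replicate 1 (exact 95% interval 0.870 to 0.979%) and 1.06% in replicate 2 (0.974 to 1.16%).

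On the Meg3 side Mir337 led, with 9232 counts (2330 CPM) in replicate 1 and 2091 counts (1240 CPM) in replicate 2. Mir540 had 2381 counts (601 CPM) and 1179 counts (699 CPM) in the same order. Mir673, the nearest to Meg3, had 1265 counts (319 CPM) in replicate 1 and 964 counts (571 CPM) in replicate 2. Mir337 was high in replicate 1, where Mir540 and Mir673 were low. Mir665 had 996 counts (251 CPM) in replicate 1 and 616 counts (365 CPM) in replicate 2. Mir493, the lowest member, had 626 counts (158 CPM) in replicate 1 and 485 counts (288 CPM) in replicate 2.

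**Figure D2:**
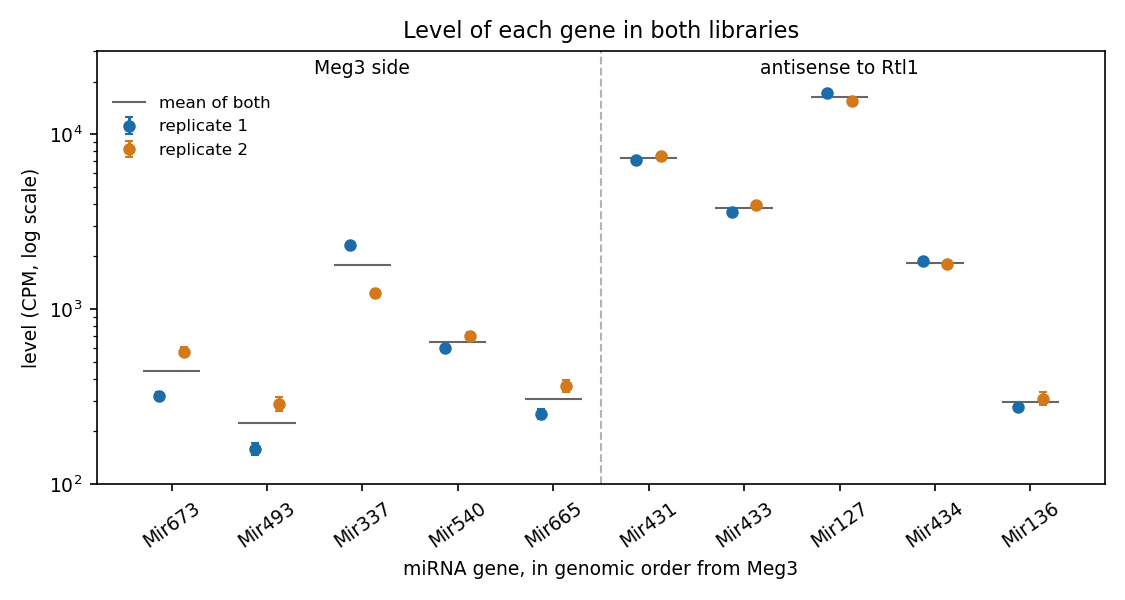
Level of each of the 10 genes in CPM (log scale), in genomic order from Meg3. Points are the libraries of replicate 1 (left of each pair) and replicate 2, bars are exact 95% intervals from counting, many smaller than the points, and lines are the means. Mir127, Mir431 and Mir433 stand clear of all other genes.

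By mean level the order was Mir127, Mir431, Mir433, Mir434, Mir337, Mir540, Mir673, Mir665, Mir136 and Mir493. The ranges over the 2 libraries did not overlap between neighbours from Mir127 down to Mir434, nor between Mir337 and Mir540 or Mir540 and Mir673. Mir434 lay inside the range of Mir337. Mir673 overlapped Mir665, and Mir665, Mir136 and Mir493 all overlapped each other. A miRNA read covers a mature arm of similar length in all of these genes, so counts were not divided by gene length. Per 100 bases of annotated gene the order was the same except that Mir136 (472 CPM) came before Mir665 (328 CPM). The tables count whole precursor genes, so the share of the 5p and 3p arms in these levels is not known.

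The balance within each subgroup was a separate matter from its level. Among the Rtl1-antisense genes, Mir127 gave 57.0% of the counts in replicate 1 (exact 95% interval 56.7 to 57.3%) and 53.3% in replicate 2 (52.9 to 53.8%), and Mir431 gave 23.8% (23.6 to 24.1%) and 25.9% (25.5 to 26.2%). The shares of Mir434, 6.25% in replicate 1 (6.11 to 6.39%) and 6.21% in replicate 2, differed by less than the interval of either. On the Meg3 side Mir337 gave 63.7% of the counts in replicate 1 (62.9 to 64.5%) and 39.2% in replicate 2 (37.9 to 40.5%). Mir337 had 3.88 times the counts of its neighbour Mir540 in replicate 1 (3.71 to 4.06) and 1.77 times in replicate 2 (1.65 to 1.91). These shares and ratios are taken within a library, so they do not depend on how the library was scaled.

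**Figure D3:**
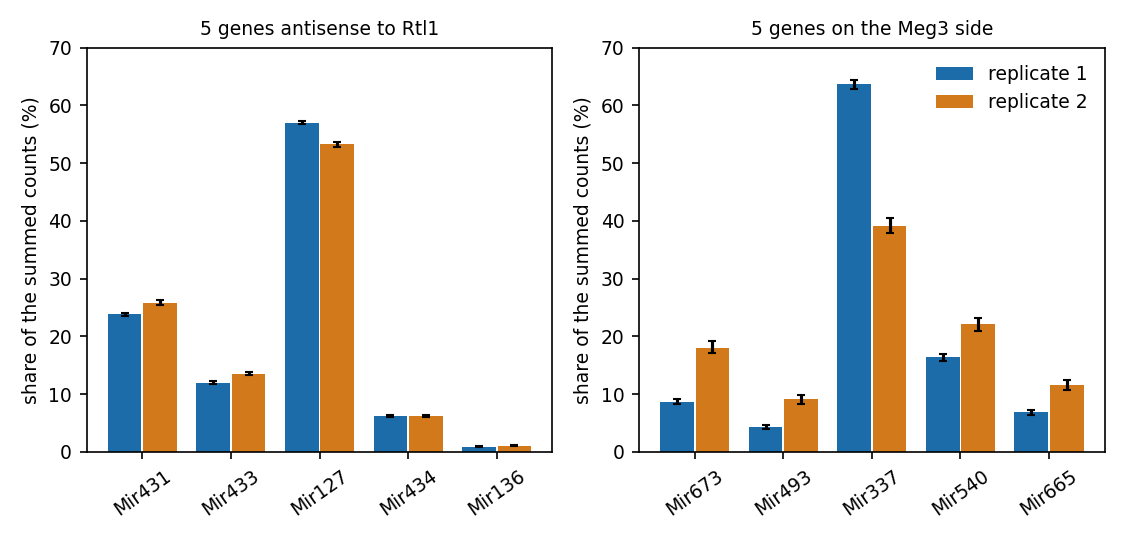
Share of each gene, in percent, of the summed counts of its subgroup in replicate 1 (left bar of each pair) and replicate 2, with exact 95% intervals from counting. The left panel holds the genes antisense to Rtl1 and the right panel those on the Meg3 side, where Mir337 gave 63.7% in replicate 1 and 39.2% in replicate 2.

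A two-sided exact binomial test set the libraries against each other at each of the 404 genes that reached 10 counts in replicate 1 or replicate 2, with Benjamini-Hochberg adjustment over all 404. This compares the libraries of 2 animals, not conditions, and a gene was called different at an adjusted p under 0.05 if its log2 ratio, replicate 1 over replicate 2, was also above 1 or below -1. No member was called, against 18.3% of all genes tested (8.66% higher and 9.65% lower in replicate 1). By the same test, 9 of the 10 members had an unadjusted p under 0.05, as did 261 of all 404 genes tested. At an adjusted p under 0.05 and any size of ratio, 8 of the 10 members differed, 2 higher and 6 lower in replicate 1. The same held for 62.1% of all genes tested, 32.4% higher and 29.7% lower, since the test sets a difference against counting error only. The scaling decided the call of Mir337. With edgeR's TMM scaling, which trims the genes of extreme ratio, 1 member was called, Mir337, at a log2 ratio of 1.02, and under DESeq2 size factors it was likewise called at 1.02. Under each of these scalings 79 of all 404 genes tested were called.

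The 5 Rtl1-antisense genes had log2 ratios between -0.15 and 0.14. The median size was 0.13, against 0.32 for the neighbouring genes from Mir379 to Mir410 and 0.50 over all genes tested. The median level of these 5 genes was 3766 CPM, against 223 CPM over all detected genes, and low counts widen such ratios. The part of level in the small ratios of these 5 genes was not tested. A limit of 0.2 was not planned. It lies between the largest size here and the smallest on the Meg3 side, so it divides the subgroups by choice. All 5 lay within 0.2 of zero, as did 23.3% of all genes tested, and none of the 5 Meg3-side genes did. Under TMM and under DESeq2 scaling this became 4 of the 5 Rtl1-antisense genes and 1 of the 5 Meg3-side genes, with Mir127 at 0.25 and Mir540 at -0.11. The level of Mir127 in replicate 1 was 1.11-fold that in replicate 2 (interval 1.09 to 1.12, adjusted p = 7.79e-43, exact test). Mir434 (adjusted p = 0.101, exact test) and Mir136 (adjusted p = 0.0690, exact test) did not pass. Which of the small differences passed depended on the scaling. Under TMM scaling Mir434 passed (adjusted p = 2.75e-07, exact test), and Mir433 (adjusted p = 0.421, exact test) no longer did. Without the liver, erythroid and striated muscle markers in the total Mir136 passed (adjusted p = 0.0381, exact test). Mir431 had a log2 ratio of -0.07, which turned to 0.038 under TMM and DESeq2 scaling, so its direction is not settled.

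The 5 Meg3-side genes had a median size of log2 ratio of 0.84. Mir673 was 1.79-fold lower in replicate 1 (exact 95% interval 1.64 to 1.95), Mir493 was 1.82-fold lower (1.61 to 2.05) and Mir665 was 1.45-fold lower (1.31 to 1.61). Mir540 had a log2 ratio of -0.22, which passed at an adjusted p of 5.93e-05 (exact test) but not under TMM scaling (adjusted p = 0.0517, exact test). Mir337 went the other way and was 1.88-fold higher in replicate 1 (1.79 to 1.97). These 4 lower genes and Mir337 kept their directions under TMM scaling, under DESeq2 size factors and with the liver, erythroid and striated muscle markers left out of the library total. Mir337 then had a log2 ratio of 0.89 and was again not called. With a limit of 0.58 on the log2 ratio, 3 of the 10 members were called, Mir337 as higher and Mir673 and Mir493 as lower in replicate 1, against 32.7% of all genes tested (16.3% higher and 16.3% lower). Whether the libraries differ more on the Meg3 side than at Rtl1 was not tested.

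**Figure D4:**
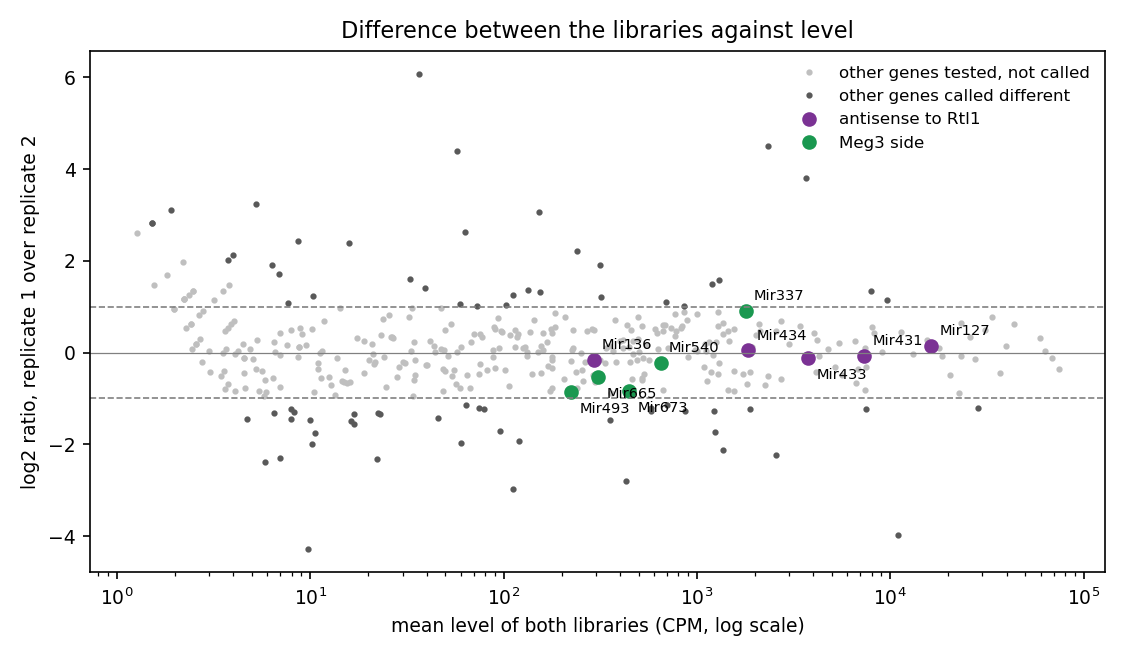
Log2 ratio of replicate 1 over replicate 2 against the mean level in CPM (log scale) for the 404 genes tested. Purple points are the genes antisense to Rtl1, green points the Meg3-side genes, dark grey points other genes called different, and dashed lines mark log2 ratios of 1 and -1. The purple points lie between -0.15 and 0.14, and Mir337 at 0.91 is the member nearest to a dashed line.

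Reads on the strand opposite to the members were few. At Mir431, Mir433 and Mir434 none was counted in either library. For Mir431 that allows at most 3 counts, or 0.0106% of its reads in replicate 1 and 0.0237% in replicate 2. Mir127 had 2 reads on the Rtl1 strand in replicate 1 and 0 in replicate 2, beside 67707 and 26082 on its own. Small RNA on the strand of Rtl1 was thus close to the limit of detection over these 4 hairpins. The labels give a size range under 30, and the level of Rtl1 mRNA was not measured.

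At Mir136 the opposite strand, which belongs to Mir3071 as well as Rtl1, had 5 reads in replicate 1 (0.454% of both strands, exact 95% interval 0.147 to 1.06%) and 2 in replicate 2 (0.383%, 0.0464 to 1.38%). Both counts are too small to set the libraries apart. Mir337 was the member with a clear signal on the other strand. It had 125 opposite-strand reads in replicate 1, or 1.34% (1.11 to 1.59%), and 40 in replicate 2, or 1.88% (1.34 to 2.55%). Of these, 116 and 39 were counted for Mir3544, whose mature form miR-3544-5p is shown with its partner because their ends are offset.
mmu-miR-337-3p, chr12:109585850-109585871, plus strand: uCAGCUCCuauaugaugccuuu
mmu-miR-3544-5p, chr12:109585851-109585873, minus strand: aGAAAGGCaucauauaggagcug

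Mir3544 was at 29.3 CPM in replicate 1 and 23.1 CPM in replicate 2, with a log2 ratio of 0.33 that did not pass (adjusted p = 0.293, exact test). Among the 153 miRNA genes with at least 500 sense counts in both libraries, 133 had no opposite-strand read in either. Mir337 was 1 of 2 with at least 1% of reads on the opposite strand in both libraries. The either-strand column of the tables gave Mir337 only 9 and 1 counts and Mir136 none, and gave none to their partners Mir3544 and Mir3071, so these overlapping genes can be read from the single-strand columns only.

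Within the imprinted region, taken as the 59 miRNA genes on the plus strand from Meg3 to the end of Mirg, the 10 members held 28.1% of the counts in replicate 1 (exact 95% interval 27.9 to 28.2%) and 26.9% in replicate 2 (26.7 to 27.0%). Of the other 49 genes, 40 were detected. The 38 genes from Mir379 to Mir410 summed to 8.37% of miRNA counts in replicate 1 and 8.58% in replicate 2. The members' sum was 0.402 and 0.375 times that of this cluster. Called different between the libraries were 0 of the 10 members tested and 5 of 41 other genes of the region tested, against the 18.3% of all genes tested.

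The flanking genes differed in opposite directions. Mir770, inside Meg3, had 412 CPM in replicate 1 and 625 CPM in replicate 2, a log2 ratio of -0.60. Mir341, inside Rian and the next plus-strand miRNA gene after Mir136, had 1281 CPM in replicate 1 and 719 CPM in replicate 2, a log2 ratio of 0.83. Neither was called. The gene nearest to Mir127 in level over both libraries was Mir379 of the neighbouring cluster, with 17039 CPM in replicate 1 and 14067 CPM in replicate 2, followed by Mir139 and Mirlet7b (distances of 0.14, 0.21 and 0.30 in log2 CPM). Nearest to Mir337, the member of rank 5, were Mir16-1, Mir361 and Mir106b (distances of 0.35, 0.43 and 0.46). With 2 libraries such likeness is a description only.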

How the data were processed

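Small RNA of 2 adrenal gland libraries (1 group) was analysed. The authors deposited a table per library of raw counts at miRNA genes, in 3 columns, under 4 summary rows. Per the file lists deposited beside them, build mm10 and annotation M21 were used; the aligner, adapter trimming and read filters are not given in the sources used here. The columns are not named: the column with more counts of a single strand was taken as the sense strand. All 2202 identifiers matched GENCODE M21. Summary rows, which stayed out of library totals, held 66.3% of reads in replicate 1 and 74.3% in replicate 2, among them reads at more than 1 locus (27.0% and 25.7%). A count of 0 allows 3 counts, or 0.757 and 1.78 CPM.

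CPM, Clopper-Pearson intervals and binomial tests were computed with Python 3.11.15 and scipy 1.17.1; log2 ratios used CPM + 0.5. The test was checked on simulated counts that held counting error only, so the check does not cover variation between animals or libraries. With 1 group edgeR's quasi-likelihood test could not be fitted. TMM factors came from edgeR 4.0.16, size factors from DESeq2 1.42.0 and folding energies from RNAfold 2.7.2. Mature and hairpin sequences of all 10 members were in the RefSeq table (GRCm38.p6). The members and lists were chosen with earlier results of these data known. Named beside the members were overlapping, flanking and marker genes, and the 3 genes nearest in log2(CPM + 0.5) to the highest member and to that of rank 5.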

Additional observations from a re-analysis of the deposited data

How the results depend on the processing

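Beside the values with a library left out, 135 alternatives were computed. In 107 of them a level, share or ratio of sums stayed within the spread of the 2 libraries, a log2 ratio kept its direction and its call, a place in the order was kept, or a count stayed within 1.5 times its value. A gene whose libraries differed more passed more easily by this spread, and TMM and DESeq2 scaling were nearly the same. The 107 is thus not a measure of stability. Detected members were 10 at a minimum of 1 or 50 counts and 8 in the either-strand column. The number of members called different was 0, but 1 under TMM scaling and 1 under DESeq2 size factors (Mir337, log2 ratio 1.02 in both), 3 at a log2 ratio beyond 0.58 and 8 with no limit on the log2 ratio. Of all 404 genes tested, 74 were called by the main rule and 79 under each of these scalings. Beyond 0.58 it was 132 genes, and with no limit 251. No member was called when every gene with a count was tested, beside 75 of 757 genes. Nor was any called without liver, erythroid and striated muscle markers in the total, beside 71 of 404 genes. That was an unplanned alternative picked with the results already known. The either-strand column also gave 0 members, beside 71 of 376 genes tested, but only 8 members were tested there. Mir337, with 9 counts in replicate 1 and 1 in replicate 2 of that column, and Mir136, with none, fell short of 10 counts. That 0 therefore cannot bear on the call of Mir337, the member nearest to the limit. TMM and DESeq2 scaling moved the median log2 ratio of all genes by 0.11, and the log2 ratio of Mir431 was 0.038 in both, against -0.07. In the either-strand column, which holds almost no counts of Mir337 and Mir136, the summed level was 35204 CPM for the 10 members, 33344 CPM for the Rtl1-antisense genes and 1860 CPM for the Meg3-side genes, and the Rtl1-antisense share was 94.7%. Without Mir126a in the total, the sums of the 10 members and of the Rtl1-antisense genes were 35542 and 31859 CPM, since a smaller total raises every level. With either library left out, the sum was 32164 to 33646 CPM for the 10 members, 29001 to 29986 CPM for the Rtl1-antisense genes and 3163 to 3660 CPM for the Meg3-side genes, the Rtl1-antisense share was 89.1 to 90.2%, and the ratio to the Mir379 to Mir410 cluster was 0.375 to 0.402. Such values cannot leave the SD of 2 libraries and show nothing about stability. No paired analysis was possible because there is 1 group. At an adjusted p under 0.05 and any size of ratio, 8 members passed, against 62.1% of all genes tested. The members that passed were 7 under TMM and under DESeq2 scaling, and 9 without the tissue markers. For these other totals the share of all genes that passed was not counted. Depth limits the opposite-strand counts, which were 5 or fewer at every member except Mir337.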

Other observations

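Between the members lie 3 further plus-strand miRNA genes of low level. Mir3070a had 46 counts in replicate 1 and 19 in replicate 2, which are 11.6 and 11.3 CPM. Mir3070b had 18 and 20 counts, or 4.54 and 11.9 CPM, and was called different (log2 ratio -1.29, adjusted p = 0.00715, exact test). Mir432, annotated between Mir434 and Mir136 inside the Rtl1 coding exon, had no count in either library, which allows up to 0.757 CPM in replicate 1 and 1.78 CPM in replicate 2.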
